A study of Mus musculus with 12 samples.

Results

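The 32 transcription factors described here are regulators of the neural crest, of oral and facial mesenchyme and of connective tissue, and were followed in mouse tongues of embryonic day 13.5. They were chosen by name for these known roles, but with earlier results of these data known. Counts set beside all genes therefore describe this list and are not independent support for it. Each factor was read from its brightest probe set with a single gene symbol, by the mean over all 12 arrays. All 32 were measured, among 18193 genes in all. Control embryos were Myf5-Cre;Smad4flox/+ and mutant embryos were Myf5-Cre;Smad4flox/flox, all on the C57BL/6J background, with 6 arrays labelled as biological replicates in each group. Both groups therefore carry the Cre and at least 1 floxed copy of Smad4, and the controls keep 1 wild-type copy. The Cre is driven from Myf5, a gene of skeletal muscle precursors, so loss of Smad4, which TGF-β and BMP signalling share as a SMAD, is aimed at that lineage and not at the mesenchyme in which most of these factors are made. RNA came from whole tongue primordia. The labels do not say whether tongues were pooled, and p-values measure the spread between these samples.

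In the head, connective tissue of the tongue and jaws comes largely from cranial neural crest, while the muscle fibres come from mesoderm that expresses Myf5. Crest cells leave the neural epithelium under factors such as Snai2, Twist1 and the Zeb proteins, and take on regional identity through homeobox, T-box and bHLH factors that respond to endothelin, BMP, Hedgehog and FGF signals. Hand2, Gsc and Barx1 are known markers of the mandibular arch, from whose mesenchyme much of the tongue's connective tissue arises.

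Signals are log2 RMA values, and differences are mutant minus control on that scale, with p-values from limma adjusted by the Benjamini-Hochberg method over all 18193 genes and called at an adjusted p under 0.05. RMA understates changes of dim probe sets. The signal of 1 probe set cannot be set against that of another, so only differences are compared between genes. The tissue's label was borne out by strong muscle and epithelial markers in controls, with Mylpf, a fast muscle myosin light chain, at 14.36 ± 0.11 (SD, n = 6) and the basal keratin Krt5 at 11.80 ± 0.20. Smad4 read 12.29 ± 0.07 in controls and 12.14 ± 0.27 in mutants (difference −0.15, adjusted p = 0.427), but tongue cells outside the targeted lineage keep the gene and the place of its probe sets relative to the deleted part is not given, so this checks nothing about the genotype. Myf5 fell from 10.37 to 8.56. Control 3, mutant 4 and mutant 6 carried both Xist and Y-linked signal: Xist was 12.40 with a Y-linked mean of 5.31 on control 3, against Y-linked means of 3.13 to 3.85 on the other arrays with high Xist, and mutants 4 and 6 had Xist at 8.73 and 7.88, where the remaining arrays with high Y-linked signal had 6.18 to 6.65. On the first principal component mutants 1 and 2 lay farthest from the controls, at 24.70 and 20.32 against 2.90 to 14.79 for the other mutants. The ribosomal 18S signal was 13.54 on control 6 and 12.98 on mutant 6, against 14.03 to 14.28 on the other 10 arrays. Calls that end without any of these sets of arrays are given below.

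For 4 factors that were higher in the mutant, the DNA just upstream of the annotated start is shown because factors that move together invite a look at what their start regions hold. Of the 32 factors, 20 had an entry in the RefSeq promoter table (build GRCm38.p6). Of the factors called higher, those shown include Gsc, Barx1 and Lhx8, whose mutant arrays all lay above every control, and Hand2, a mandibular arch factor. In each the 250 bases end at the base before the start and lie outside the annotated gene. Capitals mark 4 motifs searched on both strands: the E-box CANNTG, bound by bHLH proteins such as Twist and Hand, the homeodomain core TAATTA, the TATA box TATAAA and the GC box GGGCGG.
Gsc, chr12:104473237-104473486, minus strand: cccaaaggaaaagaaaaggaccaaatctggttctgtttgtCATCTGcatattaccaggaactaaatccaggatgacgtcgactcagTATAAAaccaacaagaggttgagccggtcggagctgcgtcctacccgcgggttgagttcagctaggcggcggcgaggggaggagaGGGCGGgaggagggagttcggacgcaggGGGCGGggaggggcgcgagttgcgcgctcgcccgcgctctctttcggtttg
Barx1, chr13:48662786-48663035, plus strand: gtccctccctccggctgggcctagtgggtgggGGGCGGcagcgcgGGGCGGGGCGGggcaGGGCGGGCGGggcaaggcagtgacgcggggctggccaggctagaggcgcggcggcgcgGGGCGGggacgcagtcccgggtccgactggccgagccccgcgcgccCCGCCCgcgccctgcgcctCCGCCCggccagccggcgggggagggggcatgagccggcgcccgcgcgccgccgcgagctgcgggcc
Lhx8, chr3:154330561-154330810, minus strand: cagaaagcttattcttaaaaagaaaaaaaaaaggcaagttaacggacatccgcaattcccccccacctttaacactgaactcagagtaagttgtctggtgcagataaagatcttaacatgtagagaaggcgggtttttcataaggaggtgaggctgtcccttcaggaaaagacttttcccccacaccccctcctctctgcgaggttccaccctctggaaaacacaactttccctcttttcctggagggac
Hand2, chr8:57320733-57320982, plus strand: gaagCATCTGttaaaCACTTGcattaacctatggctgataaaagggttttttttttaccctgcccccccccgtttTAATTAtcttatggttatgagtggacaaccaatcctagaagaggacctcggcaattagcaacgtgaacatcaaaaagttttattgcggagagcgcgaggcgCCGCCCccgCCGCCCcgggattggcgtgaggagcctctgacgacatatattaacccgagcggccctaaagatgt

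The 4 windows differed in what they held, and no motif marked in capitals was in all of them. Twist1, Twist2 and Msx1, also called higher with windows outside the gene, are not shown. Their windows held 1, 4 and 1 GC boxes, with 1 TATA box in Twist1 and 1 E-box in Msx1 besides. Gsc held 1 E-box, 1 TATA box 164 bases before its start and 2 GC boxes. Barx1 held 8 GC boxes, some of them overlapping, and no E-box, and its window was 85.6% G and C. Lhx8, at 46% G and C, held none of the 4 motifs. Hand2 held 2 E-boxes, at 246 and 235 bases before the start, 1 homeodomain core and 2 GC boxes. The Gsc E-box and the farther Hand2 E-box had the same letters, CATCTG. Over all 32851 promoters of the table, 66.2% had an E-box in the same window, 4.84% a homeodomain core, 12.4% a TATA box and 32.7% a GC box. The short SMAD-binding letters GTCT were in 82.9% of all promoters, and the longer CAGAC, which overlaps them on the reverse strand, in 42.2%. Lhx8 had 2 matches to GTCT, 1 of them within a match to CAGAC, and the windows shown for Gsc, Barx1 and Hand2 had none of either. Of the windows not shown, Twist1 had 2 matches to GTCT and 1 to CAGAC, Twist2 had 1 to GTCT, and Msx1 had none of either. A match is a string of letters and not a shown binding site.

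Many of the 32 factors rose in the mutant tongue, and few fell. By limma 13 factors, or 40.6%, were higher in the mutant, where 6.30% of all genes were. Only 2 of the 32 factors were dim. With dim probe sets left out, larger shares of genes passed, 1359 of 12178 higher and 907 lower. The same 13 factors were higher there. The risers spanned crest factors (Twist1, Twist2, Snai2, Tfap2b), homeobox genes (Gsc, Prrx1, Prrx2, Alx1, Lhx8, Msx1, Barx1) and the regulators Hand2 and Osr1, with differences from 0.22 for Snai2 to 0.65 for Gsc, which are 1.17- and 1.57-fold. Tbx15 and Zeb1 were lower, which is 6.25% of the factors and near the 4.80% of all genes that were lower. In either direction 15 of 32 factors were called, against 11.1% of all genes. The median difference of the 32 was 0.18, against 0.01 for all genes, with 23 factors above 0 and 9 below. The 2 genotypes did not overlap for 6 factors. Prrx1, Gsc, Barx1, Lhx8 and Osr1 lay wholly above the controls (15.6%, against 3.40% of all genes), and Tbx15 wholly below (3.12%, against 2.90%), so that 18.8% of factors did not overlap where 6.30% of genes did not. A rise or fall in whole-tongue RNA cannot separate a change in the number of cells that make a factor from a change in RNA per cell.

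**Figure D1:**
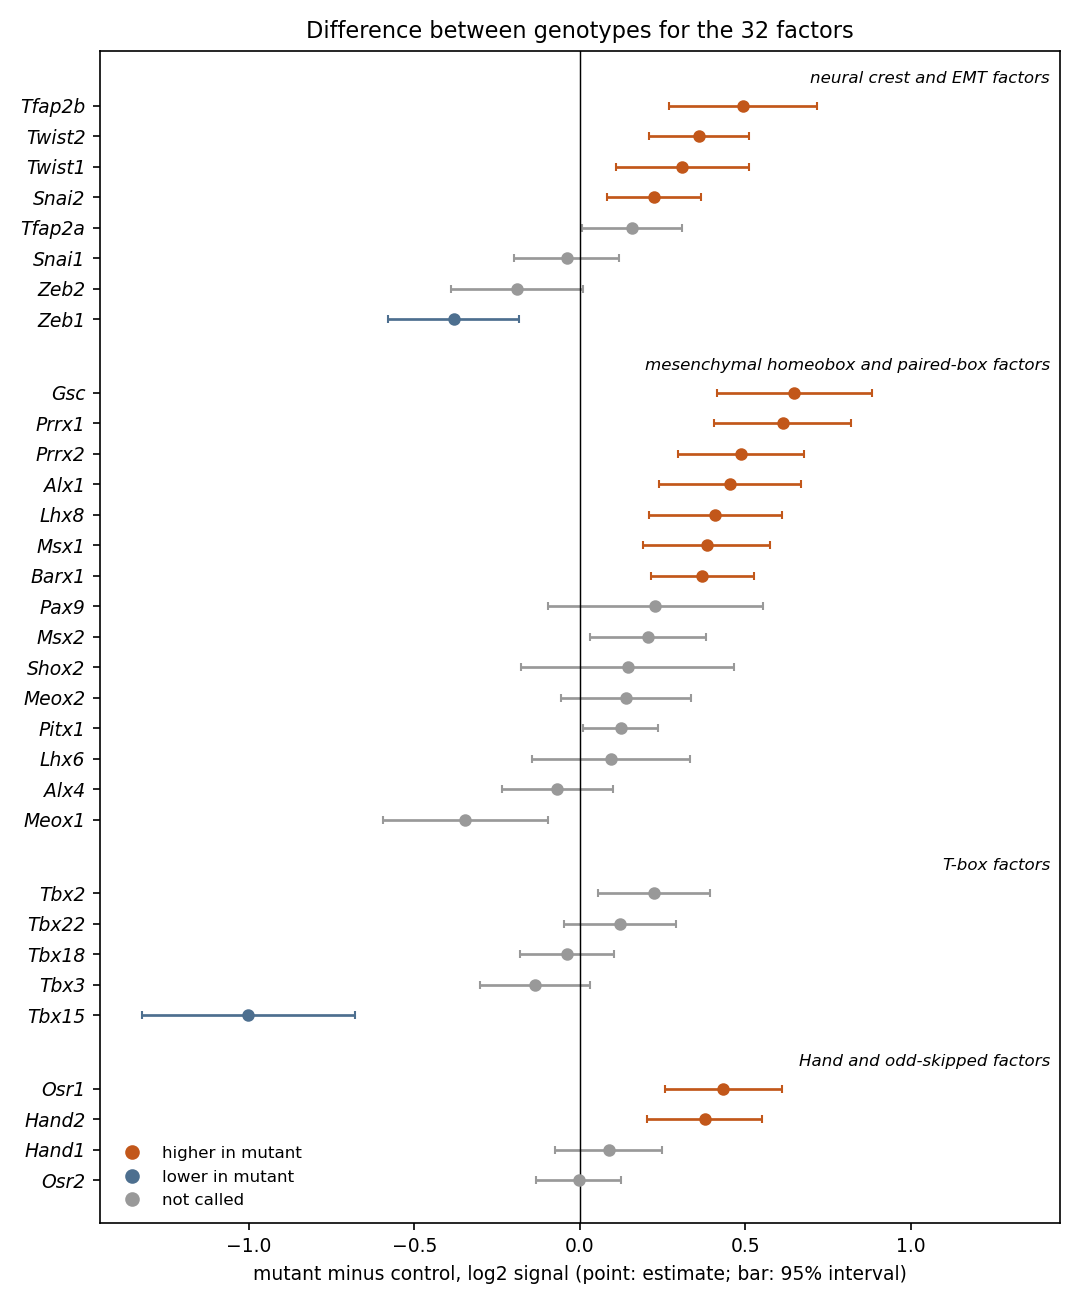
Difference between 6 mutant and 6 control arrays for each of the 32 factors, in log2 signal, grouped by role. Points are limma estimates and bars their 95% intervals. Factors called higher lie between 0.22 (Snai2) and 0.65 (Gsc), and Tbx15 stands alone at −1.001.

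Among the homeobox and paired-box factors of the facial mesenchyme, 7 of 15 rose and none fell by limma. Over all genes 6.30% were higher and 4.80% lower. Meox1 had an unadjusted p under 0.05 with a difference below 0. Gsc, a homeobox factor of the mandibular arch, rose most. Its signal on the control arrays was 8.001 at the lowest, 8.20 at the median and 8.50 at the highest, and on the mutant arrays 8.51, 8.91 and 9.13. The groups touched without overlapping, since mutant 5 (8.51) lay just above control 1 (8.50). The difference was 0.65 ± 0.11 (SE, adjusted p = 0.00208).

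Prrx1, a paired-related homeobox factor of limb and craniofacial mesenchyme, ran from 10.07 through 10.37 to 10.50 in controls and from 10.67 through 10.91 to 11.22 in mutants. Every mutant array was above every control, and mutants 1 and 2 were highest. The difference was 0.61 ± 0.10 (SE, adjusted p = 0.00139). Prrx1 has 6 probe sets, and of the other 5, those with control means of 9.51, 9.08 and 6.85 were called higher too, by 0.56, 0.47 and 0.44. A probe set at 6.01 in controls differed by 0.27 (adjusted p = 0.0917 among all probe sets), and one at 3.15 by −0.0030. Its relative Prrx2, which shares much of Prrx1's pattern in mesenchyme, ran from 9.23 through 9.40 to 9.69 in controls and from 9.68 through 9.91 to 10.14 in mutants. Only control 1 reached into the mutant range of Prrx2, and the difference was 0.49 ± 0.09 (SE, adjusted p = 0.00321).

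Barx1, a homeobox factor of proximal jaw and tooth mesenchyme, and Lhx8, a LIM-homeobox factor of oral mesenchyme, each separated the genotypes on all arrays. Barx1 was 9.71 to 10.11 in controls (median 9.90) and 10.15 to 10.49 in mutants (median 10.23), a difference of 0.37 ± 0.07 (SE, adjusted p = 0.00511). Lhx8 was 9.18 to 9.66 in controls (median 9.37) and 9.68 to 10.09 in mutants (median 9.76), a difference of 0.41 ± 0.09 (SE, adjusted p = 0.0125). Controls 1 and 6 were the highest controls for Lhx8, at 9.60 and 9.66, and lay close under the lowest mutants.

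Alx1, an aristaless-like factor of frontonasal crest mesenchyme, and Msx1, a homeobox target of BMP signalling, rose with some overlap. Alx1 went from 8.55 to 9.02 in controls (median 8.81) to 8.99 to 9.55 in mutants (median 9.26), with mutant 6 inside the control range. Its difference was 0.45 ± 0.10 (SE, adjusted p = 0.0107). Msx1 went from 6.77 to 7.16 in controls (median 7.05) to 7.09 to 7.60 in mutants (median 7.41), with mutant 5 inside the control range. Its difference was 0.38 ± 0.09 (SE, adjusted p = 0.0136). The probe sets of Msx1 did not speak with 1 voice: a second one, with a control mean of 6.93, had a difference of 0.04 (adjusted p = 0.888 among all probe sets), and the mean of both differed by 0.21 (adjusted p = 0.0630). A second Alx1 probe set differed by 0.35 (adjusted p = 0.0834).

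The other 8 homeobox and paired-box factors were not called. Msx2 differed by 0.20 (adjusted p = 0.133), Pax9, a paired-box factor of tooth and palate mesenchyme, by 0.23 (0.393) and Pitx1, a mandibular and hindlimb factor, by 0.12 (0.167). Pax9 was spread widely within both groups, from 7.79 to 8.52 in controls and from 8.02 to 8.82 in mutants, with mutants 1 and 2 highest, and without those 2 arrays it differed by 0.04 (0.928). Shox2, Meox2 and Lhx6 differed by 0.14, 0.14 and 0.09, and Alx4 by −0.07. A second Lhx6 probe set, at 4.28 in controls, differed by −0.06 without a call. Without mutants 1 and 2, Meox2 differed by 0.03 and Shox2 by 0.05. Meox1, a homeobox factor of somites and early muscle precursors, pointed down, from 8.76 to 9.04 in controls to 8.19 to 8.88 in mutants. Its difference was −0.35 ± 0.12 (SE, adjusted p = 0.0722), and mutants 1, 2 and 4 were lowest. Meox1 was called lower without mutant 5 (−0.40, adjusted p = 0.0380) or mutant 6 (−0.41, 0.0302), and read −0.18 without mutants 1 and 2 (0.306). Pitx1 was called higher without control 1 (0.16, adjusted p = 0.0498).

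**Figure D2:**
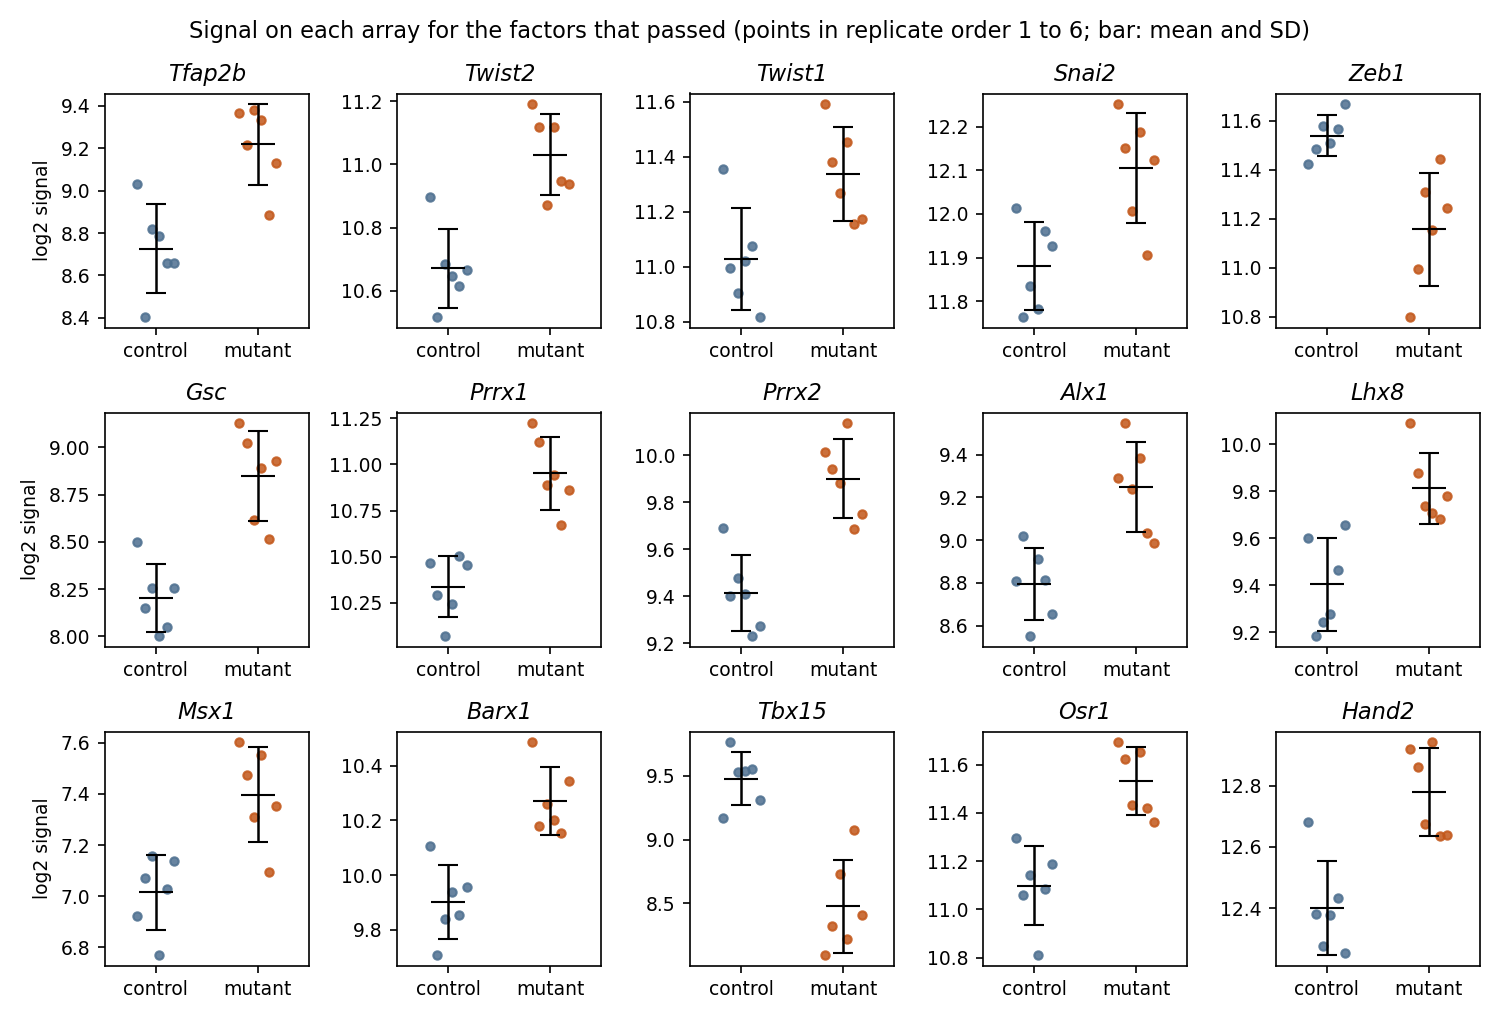
Log2 signal on each of the 12 arrays for the 15 factors that were called, with the mean and SD of each genotype as bars (n = 6). Each panel has its own axis. Prrx1, Gsc, Barx1, Lhx8 and Osr1 have every mutant above every control, and Tbx15 has every mutant below.

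Of the 8 crest and epithelial-to-mesenchymal transition factors, 4 rose and 1 fell, where 6.30% of all genes were higher and 4.80% lower. Tfap2b, an AP-2 factor of crest and facial mesenchyme, changed most among the risers. It was 8.40 to 9.03 in controls (median 8.72) and 8.88 to 9.38 in mutants (median 9.27). Only mutant 5 fell inside the control range, and the difference was 0.49 ± 0.10 (SE, adjusted p = 0.00817). Its second probe set rose by 0.55 (adjusted p = 0.00260 among all probe sets). Tfap2a, which also marks surface ectoderm, differed by 0.16 (adjusted p = 0.179), and a second probe set of it by 0.27 (0.0774).

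The bHLH factors Twist1 and Twist2, which keep crest and dermal cells mesenchymal, were both higher. Twist2 was 10.52 to 10.90 in controls (median 10.66) and 10.87 to 11.19 in mutants (median 11.03), a difference of 0.36 ± 0.07 (SE, adjusted p = 0.00528). Twist1 was 10.82 to 11.35 in controls (median 11.01) and 11.16 to 11.59 in mutants (median 11.32), a difference of 0.31 ± 0.09 (SE, adjusted p = 0.0487). Control 1 was the highest control for both and lay inside the mutant range. The Twist1 call was at the edge: it ended without any 1 of controls 2 to 6 or mutants 1 to 4. In those fits the adjusted p was up to 0.110 and the difference between 0.26 and 0.32.

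Snai2, a zinc-finger repressor of E-cadherin in migrating crest, was 11.76 to 12.01 in controls (median 11.88) and 11.91 to 12.25 in mutants (median 12.14). The difference of 0.22 ± 0.07 (SE, adjusted p = 0.0417) left 2 mutants inside the control range. This call too ended when 1 array was left out, in 8 of 12 cases (controls 2, 3, 4 and 6, mutants 1, 2, 4 and 6), with adjusted p up to 0.0994. A second Snai2 probe set differed by 0.10 (adjusted p = 0.513). Snai1 was flat at −0.04 (adjusted p = 0.802).

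Zeb1, a zinc-finger repressor of epithelial genes that is also made in muscle precursors, went the other way. It was 11.43 to 11.67 in controls (median 11.54) and 10.80 to 11.44 in mutants (median 11.20), with mutants 1 and 2 lowest and only mutant 5 inside the control range. The difference was −0.38 ± 0.09 (SE, adjusted p = 0.0164). All 4 Zeb1 probe sets pointed down, the others by −0.25, −0.14 and −0.22, none of which passed over all probe sets. The mean of the 4 differed by −0.25 (adjusted p = 0.123), short of a call. Zeb2 differed by −0.19 (adjusted p = 0.228), and its other probe sets by −0.35 to 0.03 without a call.

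Of the 5 T-box factors, none rose by limma, with 1 above 0 at an unadjusted p under 0.05, and 1 fell. So few factors cannot be told from all genes, of which 6.30% were higher and 4.80% lower. Tbx15, known in skin, skeletal and limb mesenchyme and in fast muscle fibres, changed more than any other of the 32. It was 9.17 to 9.76 in controls (median 9.53) and 8.10 to 9.07 in mutants (median 8.37). Every mutant lay below every control, with mutant 5 nearest at 9.07 and mutant 1 farthest at 8.10. The difference was −1.001 ± 0.15 (SE, adjusted p = 0.000993), a fall to 2.00-fold lower. A second Tbx15 probe set, at 6.01 in controls, fell by 0.64 (adjusted p = 0.0299 among all probe sets).

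Tbx18, a factor of perivascular and limb mesenchyme, differed by −0.04 (adjusted p = 0.784), and Tbx22, mutated in X-linked cleft palate, by 0.12 (0.377). Tbx3 differed by −0.14 (0.307), and its other probe sets by −0.16 to 0.07 without a call. Tbx2 differed by 0.22 ± 0.08 (SE, adjusted p = 0.0882). Its mutant arrays fell apart, with mutants 1 and 2 at 7.81 and 7.87, level with the controls (7.81 to 7.98), and the other 4 at 8.13 to 8.29, above them. Tbx2 was called higher without mutant 1 (0.28, adjusted p = 0.0286) and without mutants 1 and 2 (0.34, 0.00432).

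Hand2 and Osr1 rose while their relatives Hand1 and Osr2 were not called, where 6.30% of all genes were higher and 4.80% lower. No member of this group of 4 fell by limma or had an unadjusted p under 0.05 with a difference below 0. Hand2, the bHLH factor of the distal mandibular arch downstream of endothelin, was 12.25 to 12.68 in controls (median 12.38) and 12.64 to 12.94 in mutants (median 12.77). Control 1 (12.68) lay above 3 mutants, and the difference was 0.38 ± 0.08 (SE, adjusted p = 0.00875). The dimmer Hand2 probe sets differed by 0.24 and 0.33, short of a call over all probe sets. Osr1, an odd-skipped zinc-finger factor of connective tissue progenitors, was 10.81 to 11.29 in controls (median 11.12) and 11.36 to 11.69 in mutants (median 11.53). The groups did not overlap, and the difference was 0.43 ± 0.08 (SE, adjusted p = 0.00432). Hand1 and Osr2 differed by 0.09 (adjusted p = 0.534) and −0.0037 (0.979). A second Hand1 probe set, at 4.79 in controls, differed by −0.06 without a call.

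The strength of the calls varied with the arrays used. Of the 15 called factors, 6 kept their call and direction under all 24 alternative fits: Prrx1, Prrx2, Gsc, Twist2, Osr1 and Tbx15. Leaving out any 1 array ended only the Twist1 and Snai2 calls. Without mutants 1 and 2, 7 factors were higher (1 of them, Tbx2, not called on all arrays) and 1 lower. Alx1 then differed by 0.37 (adjusted p = 0.0616), Msx1 by 0.31 (0.0900), Lhx8 by 0.32 (0.0746), Tfap2b by 0.46 (0.0544), Hand2 by 0.32 (0.0654), Zeb1 by −0.25 (0.0536), Twist1 by 0.23 (0.222) and Snai2 by 0.18 (0.212). With the 3 arrays that carried both Xist and Y-linked signal left out (control 3, mutant 4 and mutant 6), 6 were higher and 1 lower. Barx1 then differed by 0.36 (adjusted p = 0.0539), Lhx8 by 0.41 (0.0704), Msx1 by 0.38 (0.0702), Tfap2b by 0.50 (0.0581), Hand2 by 0.35 (0.0604), Zeb1 by −0.39 (0.0889), Twist1 by 0.30 (0.166) and Snai2 by 0.19 (0.229). Without control 6 and mutant 6, the arrays with low 18S signal, only Twist1 (0.30, adjusted p = 0.071) and Snai2 (0.23, 0.0807) lost their calls. Fewer arrays were tested in all 3 cases, and no difference of a called factor changed sign.

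Whether related genes responded alike was asked for 13 pairs of the same family, with the difference between the 2 genes taken within each array and an exact 2-sided permutation test between the genotypes, adjusted over the 13 pairs. The smallest p that 6 arrays against 6 can give is 0.00216. Unequal responses were called for 8 pairs. In most of these the gene that changed less had the dimmer probe set, such as Hand1 (control mean 7.13) beside Hand2 (12.40) and Alx4 (5.88) beside Alx1 (8.79). The reverse held for Tfap2a (9.31) beside Tfap2b (8.73) and for Tbx3 (10.08) beside Tbx2 (7.85). RMA understates changes of dim probe sets, and how far this shaped the gaps was not tested. The widest gap was between Tbx15 and Tbx18, at −0.96 ± 0.18 (SE; exact p = 0.00216, adjusted p = 0.0281), with 6 of 6 mutants beyond every control. Osr1 rose relative to Osr2 by 0.44 ± 0.09 (exact p = 0.00433, adjusted p = 0.0281, 5 of 6 mutants beyond). Both of these held with any 1 array left out, but without mutants 1 and 2 the call for Osr1 and Osr2 ended (0.42, exact adjusted p = 0.0825). Alx1 rose relative to Alx4 by 0.52 ± 0.15 (exact p = 0.00866, adjusted p = 0.0375, 4 of 6 mutants beyond), a call that ended in 7 of 12 such fits (without control 2, 3 or 5 or mutant 1, 2, 4 or 6, with adjusted p up to 0.0657).

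The remaining 5 calls all stood at an adjusted exact p of 0.0492. The response of the first gene less that of the second was −0.29 for Hand1 and Hand2, −0.32 for Lhx6 and Lhx8, −0.34 for Tfap2a and Tfap2b, −0.26 for Snai1 and Snai2 and 0.36 for Tbx2 and Tbx3. None of the 5 was firm: of 12 fits with 1 array left out, the call ended in 11 for Hand1 and Hand2 and for Tbx2 and Tbx3, and in 10 for each of the other 3, with exact adjusted p up to 0.0985. Averaging the probe sets also ended the call for Snai1 and Snai2 (−0.20, exact adjusted p = 0.0739). Meox1 and Meox2 differed by −0.48 ± 0.22 (exact p = 0.0649, adjusted p = 0.0938), and were called without mutant 6 (−0.62, exact adjusted p = 0.0281). For Prrx1 and Prrx2 the gap was 0.13 ± 0.12 (exact p = 0.314, adjusted p = 0.340), and for Twist1 and Twist2 −0.05 ± 0.07 (exact p = 0.450, also after adjustment). Msx1 and Msx2 (0.18, exact adjusted p = 0.248) and Zeb1 and Zeb2 (−0.19, 0.205) were not called unequal either. With 1 array left out, 2 to 6 pairs were called. Without mutants 1 and 2 the calls were Tbx15 with Tbx18 (−0.87) and Tbx2 with Tbx3 (0.52), both at an exact adjusted p of 0.0310. None was called without control 3, mutant 4 and mutant 6, where the smallest exact adjusted p was 0.0774 and 4 pairs had an unadjusted p under 0.05. None was called either without control 6 and mutant 6, the arrays with low 18S signal. The smallest exact adjusted p was 0.0516 there, and 7 pairs had an unadjusted p under 0.05. With any of these 3 sets left out, the smallest exact p the test can give is above the 0.00216 of all arrays. A pair that separated the genotypes fully could then miss the threshold after adjustment. The loss of calls in these fits therefore cannot show that they rest on those arrays.

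**Figure D3:**
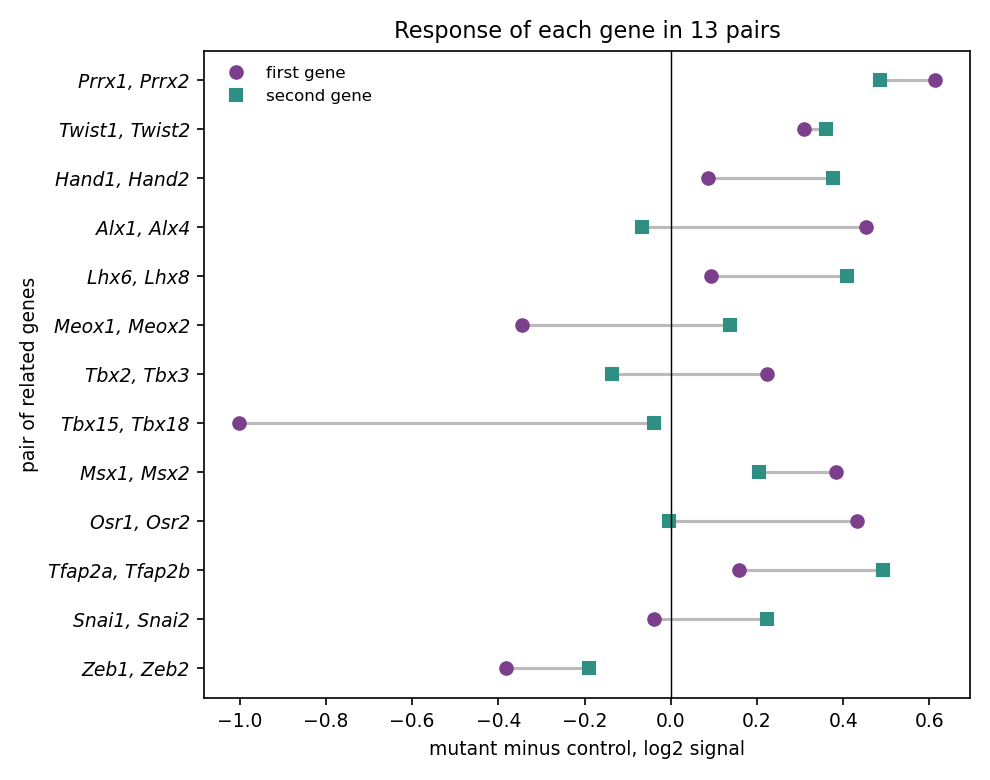
Difference between genotypes in log2 signal for each gene of the 13 pairs, the first-named gene as a circle and the second as a square. Prrx1 with Prrx2 and Twist1 with Twist2 lie close together to the right of 0, while Tbx15 lies at −1.001 and Tbx18 at −0.04.

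Of 21 connective tissue genes for matrix, receptors and adhesion, 4 were higher and 3 lower, with a median of 0.05. Both shares lay above those of all genes, 6.30% higher and 4.80% lower, so this list moved both ways. Fbln2, a matrix fibulin, rose by 0.61 and Pdgfra, the PDGF receptor of mesenchyme, by 0.41, while Ogn, a small leucine-rich proteoglycan, fell by 0.58. Dcn (−0.42) and Lum (−0.38), named after their values were seen, fell too. The mean of this list, set to 0 in controls, ran from −0.10 to 0.09 on control arrays and from −0.01 to 0.13 on mutant arrays. When each array was centred on that mean, 11 of the 13 higher factors were still higher and both lower ones still lower. Rises and falls within the list offset each other, so the centring moved differences little. It cannot show how much connective tissue each sample held. Gsc then differed by 0.61 (adjusted p = 0.00219), Prrx1 by 0.57 (0.000627) and Tbx15 by −1.04 (0.000594), while Twist1 (0.27, adjusted p = 0.121) and Snai2 (0.18, 0.132) were no longer called. On that scale the median of all genes was −0.03, and 598 genes were higher and 869 lower, against 1147 and 873 without the centring.

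Of 36 other regulators of crest and mesenchyme, 31 were measured, and 12 were higher and 2 lower, with 17 not called and a median of 0.21, where 6.30% of all genes were higher and 4.80% lower. Foxf1, a forkhead target of Hedgehog signalling, rose by 0.62, and by smallest p it was followed by Dlx5, a homeobox factor of the mandibular arch (0.68), and Dlx1, of the same family (0.46). The 2 that fell, named after their values were seen, were Six2 (−0.92) and Hic1 (−0.20). Of 19 measured genes for signals to this mesenchyme and their receptors, 5 were higher, and none was lower by limma or by an unadjusted p under 0.05. These included Ptch1, the Hedgehog receptor and target (0.41), Shh itself (0.56) and Bmp4 (0.22).

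Muscle genes fell in the mutant, where 4.80% of all genes were lower. Of 18 skeletal muscle markers, 17 were lower and none higher by limma or by an unadjusted p under 0.05, with a median of −0.73. The smallest p belonged to Sln, sarcolipin (−1.63), Myf5 (−1.81) and the progenitor factor Pax7 (−1.35). The mean of the list, set to 0 in controls, was lowest on mutant 1 (−1.28), followed by mutants 4 (−1.07), 2 (−0.88), 6 (−0.86), 3 (−0.79) and 5 (−0.62). The mean of the 13 higher factors was 0.61, 0.51, 0.51, 0.35, 0.36 and 0.22 on those same arrays. Among controls, control 1 had the lowest muscle mean (−0.40), the highest mean of the 13 factors (0.19) and the lowest mean of Tbx15 and Zeb1 (−0.21). The remaining controls lay between −0.03 and 0.22 for muscle and between −0.07 and 0.00 for the 13 factors. What part the loss of muscle RNA has in the rise of the 13 factors was not tested.

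**Figure D4:**
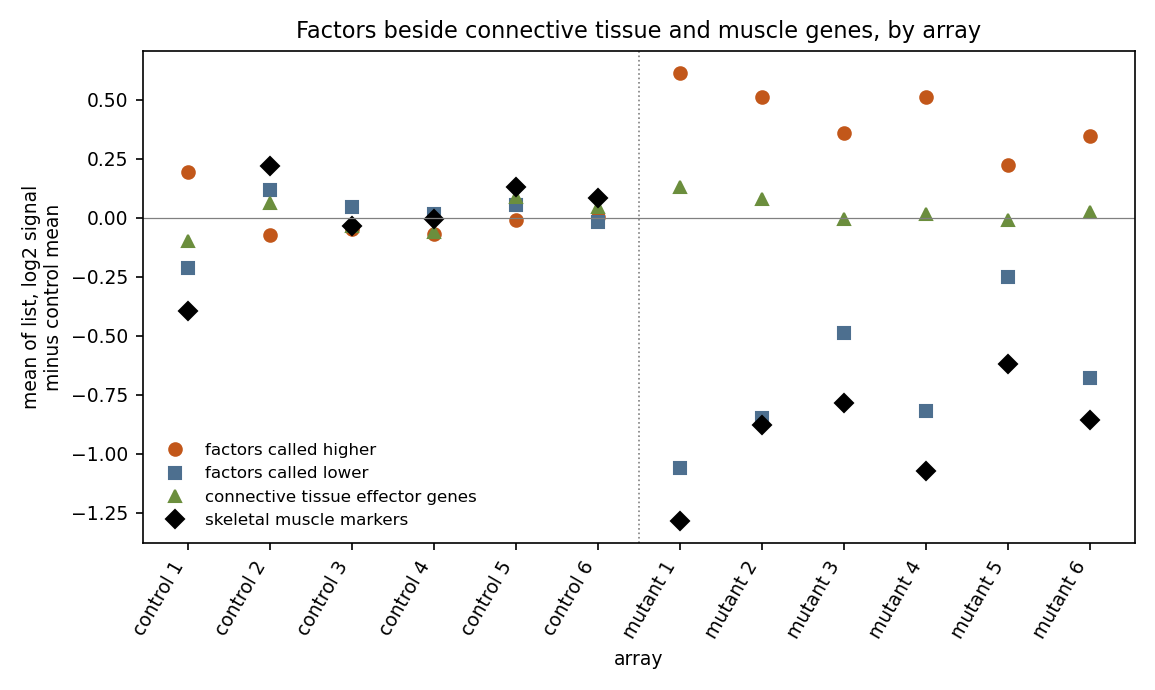
Mean log2 signal on each of the 12 arrays, relative to the control mean, of the 13 factors called higher, the 2 called lower, 21 connective tissue genes and 18 muscle markers. Mutant 1 is the most extreme for both groups of factors and for muscle, mutant 5 the mildest, and control 1 stands apart from the other controls in the same directions for these 3 groups.

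Markers of other cell types moved as well, where 6.30% of all genes were higher and 4.80% lower. Of 16 oral epithelium markers, 6 were higher and none lower by limma or by an unadjusted p under 0.05 (median 0.26), and those with the smallest p were Cldn4, a tight junction claudin (0.46), Esrp1, an epithelial splicing factor (0.39), and Dsp, desmoplakin (0.32). The list mean ran from −0.24 to 0.17 on controls and from 0.13 to 0.49 on mutants. Of 10 measured neuron markers, 8 were higher and none lower by the same tests (median 0.73), and those with the smallest p were Snap25 (1.51), Tubb3 (0.89) and Elavl4 (0.60). Their mean ran from −0.16 to 0.14 on controls and from 0.30 to 1.17 on mutants. Cartilage and bone markers had 4 of 13 higher and 2 lower (median 0.20), with the smallest p for the collagens Col9a2 (0.69), Col9a3 (0.64) and Col9a1 (0.71), and a list mean of −0.06 to 0.08 on controls and 0.12 to 0.26 on mutants. Glial markers had 2 of 7 higher and 1 lower (median 0.09), namely Fabp7 (1.00), S100b (0.79) and Erbb3 (−0.51). Their list mean ran from −0.12 to 0.14 on controls and from 0.06 to 0.40 on mutants. With 7 genes this list is too short to tell its shares from those of all genes. Several of the 32 factors, such as Tfap2a, Pitx1 and Msx2, are also made in epithelium. The part of these cell types in the values of the factors was not tested.

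**Figure D5:**
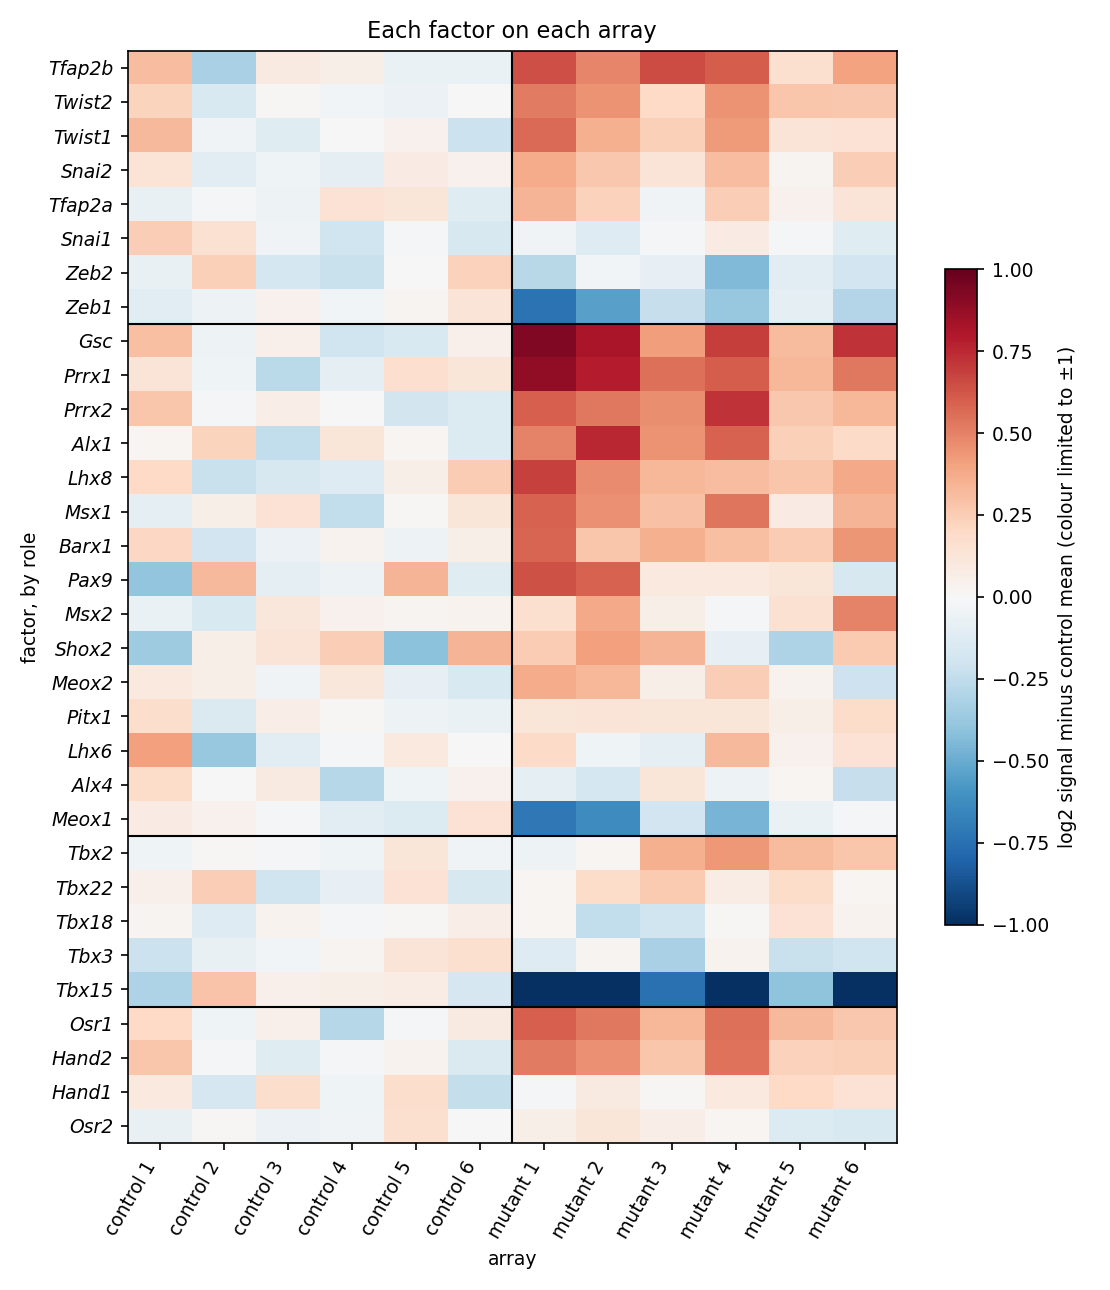
Log2 signal of each of the 32 factors on each array minus its control mean, with red above and blue below it and colours limited to ±1, which Tbx15 exceeds on 4 mutant arrays. Averaged over the 13 higher factors, the shift is strongest on mutants 1, 2 and 4 (0.61, 0.51 and 0.51) and weakest on mutant 5 (0.22), while single factors differ, such as Tfap2b, which is highest on mutant 3.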

How the data were processed

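Total RNA of 12 tongue samples was hybridised to Affymetrix mouse genome expression arrays, 1 per sample. The deposited log2 signals, 1 per probe set, come from RMA, which the authors ran, per the submitters' processing notes. Its software is not given in the sources used. Base 2 was inferred from the range of 2.57 to 15.09. Of 45101 probe sets, 64 were array controls and were dropped; 34945 had 1 symbol in the platform annotation, 932 several and 9160 none. Symbols were checked by gene identifier against RefSeq for 34741 probe sets, and none changed. A gene was read from its brightest probe set. Arrays carry no counting depth, and their number limits the precision. No 2 arrays were duplicates (at most 0.149% of probe sets identical).

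The test between genotypes was limma's (version 3.58.1, R 4.3.3, functions lmFit and eBayes, 2-sided, genotype only) over all 18193 genes with Benjamini-Hochberg adjustment; the fit was tested on simulated data. Gene names: all 32 factors are given, with the lowest, median and highest signal for those that passed, the departing probe sets, Smad4 and Myf5, and up to 3 passing genes with the smallest p of each other list. The factors, pairs, gene lists, tests and alternatives were chosen with earlier results of these data known. Alternatives were quantile normalization, 2 centrings, averaging a gene's probe sets, every probe set on its own, a filter on dim ones, array weights, a variance prior that was trended and robust, a replicate block, each array left out and 3 sets of arrays left out. A free-text description in the labels speaks of other embryos and was set aside. Genes of the lists without a single-symbol probe set were not analysed here.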

Additional observations from a re-analysis of the deposited data

Results flagged for a closer look

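Among 64 groups of 6 arrays (32 factors in each genotype), 2 had an array set far from the rest of its group, where chance alone gives about 1 in 20. Both were control 5. Tbx2 read 7.98 there against 7.81 to 7.87 on the other controls, and Osr2 read 7.13 against 6.90 to 6.98. Neither factor was called.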

How the results depend on the processing

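Against 13 factors higher and 2 lower on all arrays, leaving out 1 array gave 11 to 14 higher and 2 to 3 lower, and 2 to 6 unequal pairs where all arrays gave 8. Without mutants 1 and 2 there were 7 higher, 1 lower and 2 unequal pairs; without control 3, mutant 4 and mutant 6 there were 6, 1 and 0; without control 6 and mutant 6 there were 11, 2 and 0 pairs. The smallest exact p the pair test can give stayed the same with 1 array left out and rose with each of the 3 sets left out. What ended the calls was not tested. The mean of all probe sets gave 10 higher and 1 lower, since Zeb1 (−0.25, adjusted p = 0.123), Msx1, Snai2 and Twist1 missed the threshold. Quantile normalization, the filter on dim probe sets, the trended and robust variance and array weights kept all 15 calls. Centring on medians and every probe set on its own lost Twist1 and Snai2. With the replicate block 12 were higher and 2 lower, without Snai2 (adjusted p = 0.0629). The replicate numbers were not taken as pairs: same-numbered deviations correlated at −0.06 to 0.24. Signs turned only for factors near 0 and 1 uncalled pair: Osr2 ran from −0.028 to 0.028 with 1 array left out, Snai1 from −0.079 to 0.0095 and Tbx18 from −0.075 to 0.0024. With array weights Snai1 was 0.0092 and Osr2 0.0036, and Osr2 was 0.017 when control 3, mutant 4 and mutant 6 were left out and 0.026 when control 6 and mutant 6 were. The gap of Prrx1 over Prrx2 was −0.0951 with the mean of all probe sets (exact adjusted p = 0.467). Over all genes, the calls higher and lower were 1147 and 873 on all arrays, 598 and 869 relative to connective tissue genes, 826 and 820 with the mean of all probe sets, 379 and 496 without mutants 1 and 2, and 440 and 396 without control 3, mutant 4 and mutant 6.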

Other observations

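Vessel, immune and blood markers are set beside all genes, of which 6.30% were higher and 4.80% lower. With 10, 10 and 7 genes, the lists are too short to tell their shares from these. Of 10 endothelium markers only Erg, an ETS factor of endothelium and cartilage, was higher (0.47, adjusted p = 0.00242 by limma), and none was lower; at an unadjusted p under 0.05, 3 were above 0 and 1 below (list median 0.08). Of 10 macrophage markers Csf1r, the receptor for colony-stimulating factor, was higher (0.21, adjusted p = 0.0376), and none was lower by limma or by an unadjusted p under 0.05; all 10 differences were above 0, 5 of them at an unadjusted p under 0.05 (median 0.12). None of 7 measured erythroid markers was called by limma, though all 7 differences were below 0, 1 of them at an unadjusted p under 0.05 (median −0.15).

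A list of genes of tooth and palate epithelium and its surroundings moved both ways, where 6.30% of all genes were higher and 4.80% lower. Of 9 measured, Lef1, a nuclear effector of Wnt signalling, and Shh were higher, by 0.52 and 0.56, and Fgf9 was lower by limma (−0.70, adjusted p = 0.0338), with all 6 mutants below every control. The median of the list was −0.01. With 9 genes the list is too short to tell its shares from those of all genes.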
